A study of Homo sapiens with 5 samples.

Results

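Mitochondrial ribosomal proteins were followed in the triple-negative breast cancer line MDA-MB-468, in which EGFR is amplified, before and during exposure to the EGFR and HER2 kinase inhibitor afatinib. The genes were taken by symbol, as every row named MRPL or MRPS plus a number, leaving out 1 antisense row. This gave 78 of the 12474 genes in the matrix, and all 78 passed the filter on low counts. The cells carried CloneTracker XP lentiviral barcodes in all samples and were profiled with droplet 3' single-cell RNA sequencing. There were 2 libraries of untreated cells at day 0 (D0) and 1 library each of cells after 3, 6 and 9 days (D3, D6, D9) in 250 nM afatinib. The sources do not say that the D0 libraries came from separate cultures, each treated day was captured once, and the whole series is 1 cell line, so p-values measure only the spread between these libraries.

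The libraries held 478 to 1139 cells and 14517579 to 28148379 counts after a batch adjustment by the authors. The epithelial markers EPCAM, KRT8, KRT18 and KRT19 and the drug target EGFR were present in every library, with EGFR between 584 and 946 CPM (counts scaled to a library's total). ESR1, the estrogen receptor, was at 0.305 CPM or less. Among the marker genes of other cells, COL1A1 of fibroblasts was at 2.09 to 7.78 CPM, and others, among them PTPRC of leukocytes and PECAM1 of endothelial cells, were not analysed here. PGR, the progesterone receptor, was not analysed here either. Of all cell barcodes, 1 occurred in more than 1 library. Values below are CPM of counts summed over the cells of a library, after TMM scaling, and a fall in a library can come from fewer cells with the RNA or from less RNA per cell.

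The mitochondrial ribosome translates the few messenger RNAs that remain on the mitochondrial genome, all of which encode membrane subunits of the respiratory chain and ATP synthase. Its ribosomal RNAs are made inside the organelle, but all of its proteins are encoded in the nucleus, made in the cytosol and imported. The large subunit forms peptide bonds and the small subunit reads the codons. Some of the proteins have relatives in every ribosome (universal, names in u), some have relatives only in bacteria (names in b), and the rest were added in mitochondria (names in m). By these names 51 of the genes encode proteins of the large subunit and 26 of the small subunit, among them 27 universal, 19 bacterial and 31 mitochondria-specific proteins. MRPS30 and MRPS18A, in spite of their symbols, sit in the large subunit as mL65 and mL66. MRPS36 is now placed in the 2-oxoglutarate dehydrogenase complex as KGD4 and was kept only because of its symbol.

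Promoter sequences are shown for the most decreased genes that have one in the RefSeq set, since the members moved together at D3 and D6. For 69 of the 78 genes RefSeq (GRCh38.p14) gave a window of 250 bases before to 50 bases after the start site, and these windows were searched on both strands for CCGGAAG (ETS family), GCATGCGC (NRF1), AAGATGGC (YY1), CCAAT (NFY) and GGGCGG (SP family). NRF1 and the ETS factor GABPA are known regulators of nuclear genes for mitochondrial proteins. The ETS letters were in 29 members (42.0%), in 10.3% of all 35116 windows and in 20.6% of the 9686 windows of genes tested here. The YY1 letters were in 20 members (29.0%), in 2.89% of all windows and in 5.74% of the windows of tested genes. The NRF1 letters were in 6 members (8.70%), against 3.05% of all windows and 5.75% of those of tested genes. The NFY letters were in 29.0% of the members, 34.6% of all windows and 37.5% of those of tested genes. The SP letters were in 60.9% of the members, 45.0% of all windows and 70.9% of those of tested genes. The ETS letters end in the AAG with which the YY1 letters begin, so 1 stretch can match both, and a match is only a match of letters. Capitals mark the ETS, NRF1 and YY1 letters on either strand in the stretches below, which end 20 bases after the start site. The stretches are chr2:27771619-27771738 (plus strand), chr2:74472661-74472780 (minus strand), chr14:22829697-22829906 (plus strand), chr4:83455818-83456077 (plus strand), chr4:77862730-77862849 (plus strand) and chr7:55951777-55951896 (plus strand), and those of MRPL1 and MRPS17 hold no ETS, NRF1 or YY1 match.
MRPL33: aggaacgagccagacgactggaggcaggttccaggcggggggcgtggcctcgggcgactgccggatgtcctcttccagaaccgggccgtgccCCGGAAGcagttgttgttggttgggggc
MRPL53: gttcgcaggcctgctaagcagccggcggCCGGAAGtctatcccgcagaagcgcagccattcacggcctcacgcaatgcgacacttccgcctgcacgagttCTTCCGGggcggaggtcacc
MRPL52: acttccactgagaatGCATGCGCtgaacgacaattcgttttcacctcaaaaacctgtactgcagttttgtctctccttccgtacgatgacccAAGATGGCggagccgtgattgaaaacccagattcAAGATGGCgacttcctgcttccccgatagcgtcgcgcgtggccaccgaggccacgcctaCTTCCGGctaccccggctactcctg
MRPS18C: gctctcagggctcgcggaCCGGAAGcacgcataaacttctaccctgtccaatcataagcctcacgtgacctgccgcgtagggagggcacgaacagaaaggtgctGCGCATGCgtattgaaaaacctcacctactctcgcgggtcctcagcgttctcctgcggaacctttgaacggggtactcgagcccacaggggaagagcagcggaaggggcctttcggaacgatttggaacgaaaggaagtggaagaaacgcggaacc
MRPL1: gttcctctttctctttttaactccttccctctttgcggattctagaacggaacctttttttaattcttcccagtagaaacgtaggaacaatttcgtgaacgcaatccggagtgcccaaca
MRPS17: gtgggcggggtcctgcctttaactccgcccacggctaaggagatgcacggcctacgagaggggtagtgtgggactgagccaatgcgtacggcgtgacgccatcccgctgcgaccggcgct
The 42 members with at least 1 ETS, NRF1 or YY1 match had a median log2 fold change of -0.74 at D3, -0.73 at D6 and -0.13 at D9 over D0. The 27 members with a window and none of these matches had -0.70, -0.61 and -0.06 on the same days. Both sets had lower medians at D3 and D6 than at D9, and their difference was not tested.

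Mitochondrial ribosomal protein transcripts were lower at D3 and D6 of afatinib than in untreated cells, and most were close to the untreated level again at D9. Summed over the 78 genes they took 1.15% and 1.14% of all counts in D0 replicates 1 and 2, 0.791% at D3, 0.782% at D6 and 1.07% at D9. Expressed over the mean of both untreated libraries, this came to 69.1% on D3, 68.4% on D6 and 93.7% on D9. At D3 and at D6 each of the 78 genes was below both untreated libraries. At D9, 48 were below both, 22 above both and 8 within the untreated range. These counts by day were not made over all genes. The untreated libraries differed from each other by a median factor of 1.03 over the members, and by at most 1.16. The batch adjustment was made for these 2 captures, so this spread, on which the errors of the fits by day rest, may be understated. The treated libraries carry the same trace of adjustment as D0 replicate 1, described below, so differences between treated and untreated libraries may be altered too.

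**Figure D1:**
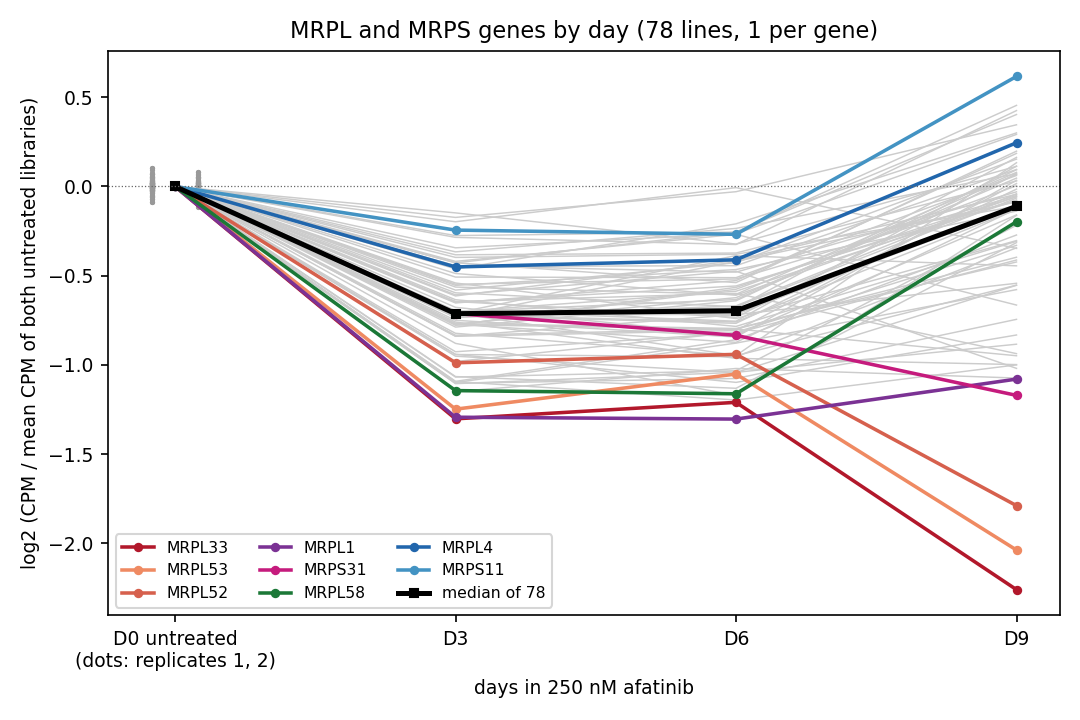
Level of each of the 78 MRPL and MRPS genes by day in 250 nM afatinib, as log2 of its CPM over the mean CPM of both untreated D0 libraries. Each grey line is 1 gene, grey dots at D0 are the 2 untreated replicates, coloured lines are 8 named genes and the black line is the median. All lines lie below 0 at D3 and D6, and at D9 they spread from -2.26 for MRPL33 to 0.62 for MRPS11.

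With the 3 afatinib libraries set against the 2 untreated ones (edgeR quasi-likelihood test, Benjamini-Hochberg adjusted p under 0.05), 23 members fell and 0 rose. In this comparison 10.1% of the 12145 genes tested fell and 13.1% rose. No member rose at an unadjusted p under 0.05 either, and limma-voom and DESeq2 also called 0 rises. The median log2 fold change was -0.45 over the members and 0.05 over all genes. In 48 of the 78 (61.5%) every afatinib library was below both untreated libraries, a pattern shown by 26% of all genes tested, and in 0 every afatinib library was above both, as in 31.7% of all genes. The count changed with single libraries, as did that over all genes. It was 2 without D0 replicate 1 (1.6% of all genes fell), 1 without D0 replicate 2 (1.14%), 13 without D3 (7.46%) and 12 without D6 (5.45%). Without D9 it was 75, where 27.3% of all genes fell.

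MRPL33 (ENSG00000243147), which encodes the small large-subunit protein bL33m, had the largest fall. It was at 456 and 448 CPM in D0 replicates 1 and 2, 183 at D3, 196 at D6 and 94.5 at D9. The afatinib libraries did not overlap the untreated ones and D9 was the lowest, for a log2 fold change of -1.52 ± 0.30 (SE, adjusted p = 0.0125, edgeR, 3 afatinib and 2 untreated libraries). Its annotated span on chromosome 2 overlaps BABAM2 on the same strand and RBKS on the other. In cells thinned to 5000 UMIs each, at least 1 UMI of MRPL33 was found in 84.9% of cells of D0 replicate 1 (exact binomial 95% interval 81.4 to 88.0), 82.1% of D0 replicate 2 (79.7 to 84.4), 54.7% at D3 (50.1 to 59.2), 57.5% at D6 (54.3 to 60.7) and 35.5% at D9 (32.7 to 38.3). The intervals cover counting error only, and no cell type that should lack the gene was present to measure free RNA. Unthinned, with median depths of 45658.5, 25252, 22715, 13862 and 20216 UMIs in the same order, the shares were 96.7%, 96.3%, 78.5%, 78.9% and 78.4%.

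MRPL52 (ENSG00000172590), for the mitochondria-specific large-subunit protein mL52, followed the same course. It was at 208 and 202 CPM in D0 replicates 1 and 2, 104 at D3, 107 at D6 and 59.5 at D9, a log2 fold change of -1.19 ± 0.25 (adjusted p = 0.016, edgeR). MRPL53 (ENSG00000204822), for mL53, was the least abundant member and fell by 1.42 ± 0.32 on the log2 scale (adjusted p = 0.0202, edgeR). Its summed counts were 75 and 95 in D0 replicates 1 and 2, 23 at D3, 27 at D6 and 21 at D9, and its annotated span overlaps CCDC142 on the same strand.

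A second set fell to about the same level on all 3 days. MRPL1 (ENSG00000169288) encodes uL1m, which forms the stalk at the exit site for transfer RNA. It was at 76.3 and 74.0 CPM in D0 replicates 1 and 2, 30.7 at D3, 30.4 at D6 and 35.6 at D9, a log2 fold change of -1.22 ± 0.14 (adjusted p = 0.00238, edgeR). MRPL35, for bL35m, was at 90.6 and 97.9 CPM at D0 and 44.2, 41.1 and 47.1 at D3, D6 and D9 (-1.09 ± 0.14, adjusted p = 0.00335, edgeR). MRPS17, for the small-subunit protein uS17m, was at 395 and 385 CPM at D0 and 182, 189.7 and 212 at D3, D6 and D9 (-1.01 ± 0.16, adjusted p = 0.00693, edgeR). In these 3 genes the treated days differed less from one another than from D0.

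The MRPS18 genes encode 3 relatives of 1 bacterial protein, and they differed in their values. MRPS18C (ENSG00000163319) encodes bS18m, the form named after the bacterial protein, and was at 185 and 187 CPM in D0 replicates 1 and 2, 83.9 at D3, 91.8 at D6 and 88.4 at D9. Its log2 fold change was -1.08 ± 0.14 (adjusted p = 0.00368, edgeR). MRPS18B, for mS40 of the small subunit, was at 143.6 and 134 CPM at D0 and 125, 111 and 149.9 at D3, D6 and D9 (log2 fold change -0.11 ± 0.18, adjusted p = 0.686, edgeR). MRPS18A, for mL66 of the large subunit, was at 75.1 and 65.6 CPM at D0 and 47.6, 46.3 and 74.3 at D3, D6 and D9 (-0.32 ± 0.23, adjusted p = 0.323, edgeR). No test was made of the difference between the paralogs.

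**Figure D2:**
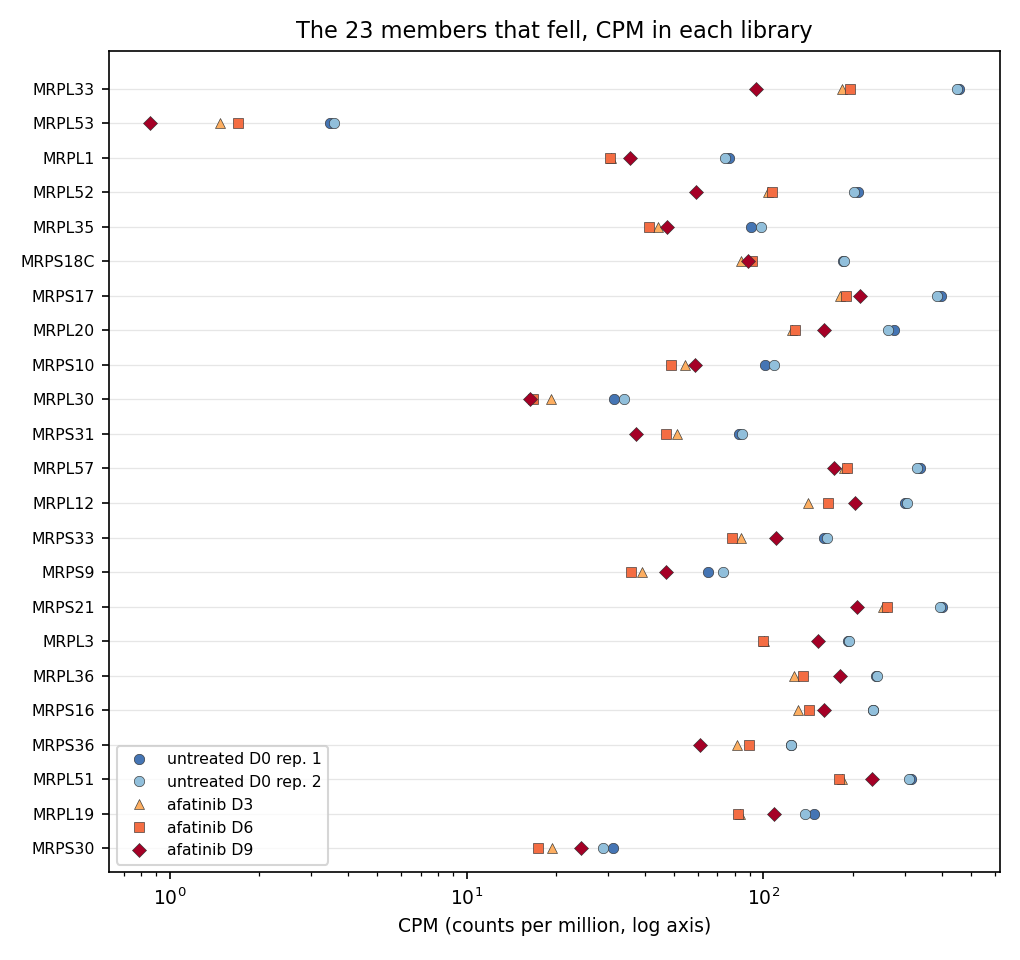
CPM of the 23 members that fell under afatinib (log axis), 1 row per gene from the largest log2 fold change at the top, with each of the 5 libraries as a point. In every row the 3 afatinib points lie left of both untreated points, and D9 is far left of D3 and D6 for MRPL33, MRPL53 and MRPL52.

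The other falls among the 12 largest were MRPL20 (bL20m), MRPS10 (uS10m), MRPL30 (uL30m), MRPS31 (mS31) and MRPL57 (mL63), with log2 fold changes of -0.96 to -0.86. Both subunits were represented, since 14 of 51 large-subunit and 8 of 26 small-subunit genes fell, with medians of -0.44 and -0.45. Of all genes tested, 10.1% fell in this comparison. By family, 9 of the 19 bacterial, 6 of the 27 universal and 7 of the 31 mitochondria-specific proteins fell, with medians of -0.67, -0.43 and -0.42, and the difference between families was not tested. MRPS36 (KGD4) made up the count, at 124 and 124 CPM at D0, 81.3 at D3, 89.1 at D6 and 61.1 at D9. The members with a positive log2 fold change were MRPS11 (uS11m, 0.10 ± 0.28), MRPS26 (mS26, 0.06 ± 0.20) and MRPL34 (bL34m, 0.02 ± 0.25), with adjusted p of 0.82, 0.836 and 0.965 (edgeR). The sign of each of the 3 turned under at least 1 other scaling or set of libraries.

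Each treated day was then set against the untreated libraries in a fit with 1 level per day, which leaves 1 residual degree of freedom, calling genes at an adjusted p under 0.05 and at least 1.5-fold. At D3, 54 of 78 members fell and 0 rose (0 also at an unadjusted p under 0.05), where 14% of all genes fell and 16.8% rose. At D6, 49 fell and 0 rose (0 also unadjusted), where 15.7% of all genes fell and 17.9% rose. At D9, 15 members fell (14.4% of all genes) and 1 rose (14.5% of all genes). Members had medians of -0.71 at D3, -0.70 at D6 and -0.11 at D9, beside 0.04, 0.01 and 0.06 over all genes. The falls at D3 and at D6 had 46 members in common, and 13 members were called at all 3 days. Such overlaps were not counted over all genes. These day contrasts use the same untreated libraries.

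The 4 largest called falls at D3 were MRPL33, MRPL1, MRPL53 and MRPS18C, and at D6 MRPL1, MRPL33, MRPL35 and MRPL17. MRPL17, for bL17m, stood at 114 and 107 CPM in D0 replicates 1 and 2, 60.0 at D3, 49.1 at D6 and 98.7 at D9. At D9 the largest were MRPL33 (log2 fold change -2.26 ± 0.07), MRPL53 (-2.03 ± 0.29), MRPL52 (-1.79 ± 0.10) and MRPS31 (-1.17 ± 0.13). MRPS31 encodes mS31 of the small subunit and was at 83.0 and 85.0 CPM at D0, 51.3 at D3, 47.1 at D6 and 37.3 at D9. MRPS11, for uS11m of the small-subunit platform, was the 1 member that rose at D9, by 0.62 ± 0.12. It was at 75.5 and 65.1 CPM at D0, 59.3 at D3, 58.4 at D6 and 108 at D9. Its log2 fold change at D9 was just above the 1.5-fold limit, and it was not called with DESeq2 size factors or without the mitochondrially encoded and cytosolic ribosomal genes.

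The treated days were also set against one another. At D6 over D3 no member was called in either direction (edgeR, adjusted p under 0.05 and 1.5-fold), where 1.47% of all genes rose and 2.42% fell, and at an unadjusted p under 0.05 there were 6 members up and 1 down. At D9 over D3, 37 members rose and 2 fell, where 10.3% of all genes rose and 12.2% fell, with a median of 0.57. At D9 over D6, 31 rose and 3 fell, where 10.9% and 10.7% of all genes did, with a median of 0.51. In all, 66 members were higher at D9 than on both earlier days, 10 were lower than on both and 2 lay between. This order was not counted over all genes.

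MRPL58 rose most at D9 over D3, by 0.95 ± 0.14. It encodes mL62, also known as ICT1, a peptidyl-tRNA hydrolase that releases stalled chains, and was at 107 and 111 CPM in D0 replicates 1 and 2, 49.3 at D3, 48.7 at D6 and 95.1 at D9. MRPS12, for uS12m at the decoding centre, was at 197 and 188 CPM at D0, 117 at D3, 120.2 at D6 and 215.7 at D9. MRPL27, for bL27m, was at 102 and 106 CPM at D0, 60.4 at D3, 66.9 at D6 and 111 at D9. MRPL39, for mL39, rose most at D9 over D6, by 1.08 ± 0.17, with 51.9 and 50.7 CPM at D0, 31.4 at D3, 26.6 at D6 and 56.3 at D9. In these genes D3 and D6 stood apart from both D0 and D9. MRPL4, the most abundant member, encodes uL4m, a protein that lines the exit tunnel. It was at 588 CPM in both D0 libraries, 430.4 on D3, 443 on D6 and 697 on D9, and rose by 0.70 ± 0.06 at D9 over D3.

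The 10 members that were lower at D9 than at D3 and D6 were MRPL33, MRPL53, MRPL52, MRPL30, MRPS31, MRPL57, MRPS21, MRPS36, MRPS27 and MRPS5. Of these, MRPL33 and MRPL52 were called lower at D9 than at D3, by 0.96 ± 0.08 and 0.80 ± 0.11 on the log2 scale (edgeR). MRPL33, MRPL53 and MRPL52 were called lower at D9 than at D6. MRPS27, for the mitochondria-specific mS27, was the 1 gene of the 15 called at D9 that was not among the 23 falls, at 18.4 and 17.9 CPM at D0, 13.6 at D3, 15.1 at D6 and 11.5 at D9.

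Transcript length was compared as well, since MRPL33 and MRPL53 have short transcripts. By the GENCODE release 44 canonical transcript, the median length was 1242 nt for the members and 3148 nt for all genes in the matrix, and 3 members had 600 nt or less, MRPL33 (508 nt), MRPL53 (496 nt) and MRPL41 (582 nt). MRPL41 had a log2 fold change of -0.44 at D9. MRPL52 (1111 nt) and MRPS31 (1486 nt), which followed MRPL33 and MRPL53 in size of fall at D9, were longer. The 297 other tested genes of 600 nt or less had a median of -0.51 at D3, -0.48 at D6 and -1.02 at D9, and 63.6% of them fell at D9, beside 14.4% of all genes. The 686 other genes over 600 and up to 1000 nt had -0.41, -0.40 and 0.07 at D3, D6 and D9, and the 23 members of that range had -0.72, -0.67 and -0.06. The 8806 other genes over 2000 nt had 0.14, 0.12 and 0.05, and the 18 members of that range had -0.77, -0.76 and -0.28. The 2256 other genes over 1000 and up to 2000 nt had -0.21, -0.27 and 0.17, and the 34 members of that range had -0.65, -0.70 and -0.06. At D3 and D6 the members were thus below the other genes in each of these ranges. At D9 over D3 the medians of other genes and members were -0.49 and -0.79 up to 600 nt, and 0.46 and 0.65 from there to 1000 nt. They were 0.33 and 0.56 over 1000 to 2000 nt, and -0.12 and 0.39 over 2000 nt. The part of transcript length in the D9 falls of MRPL33 and MRPL53, and in the rises of members at D9 over D3, was not tested.

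The mitochondrial share of a cell's counts, often used to filter cells by quality, also differed between the days. Mitochondrially encoded genes took 7.25% and 7.80% of counts in D0 replicates 1 and 2, 17.2% at D3, 16.0% at D6 and 8.82% at D9. Cells with a share under 10% were 79.3% and 80.9% of the D0 libraries, 17.7% on D3, 19.96% on D6 and 75.2% on D9. Within these cells the members took 1.58% and 1.57% of the counts that were neither mitochondrially encoded nor of cytosolic ribosomal genes at D0, 1.32% at D3, 1.32% at D6 and 1.42% at D9. In cells of 10% to under 20% the values were 1.46% and 1.48% at D0, 1.19% at D3, 1.16% at D6 and 1.35% at D9. In cells of 20% or more they were 0.775% and 0.784% at D0, 0.816% at D3, 0.803% at D6 and 0.717% at D9. In the first 2 ranges every treated library was below both untreated ones, and in the last D3 and D6 were above them. The ranges of the share were chosen after the data had been seen.

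**Figure D3:**
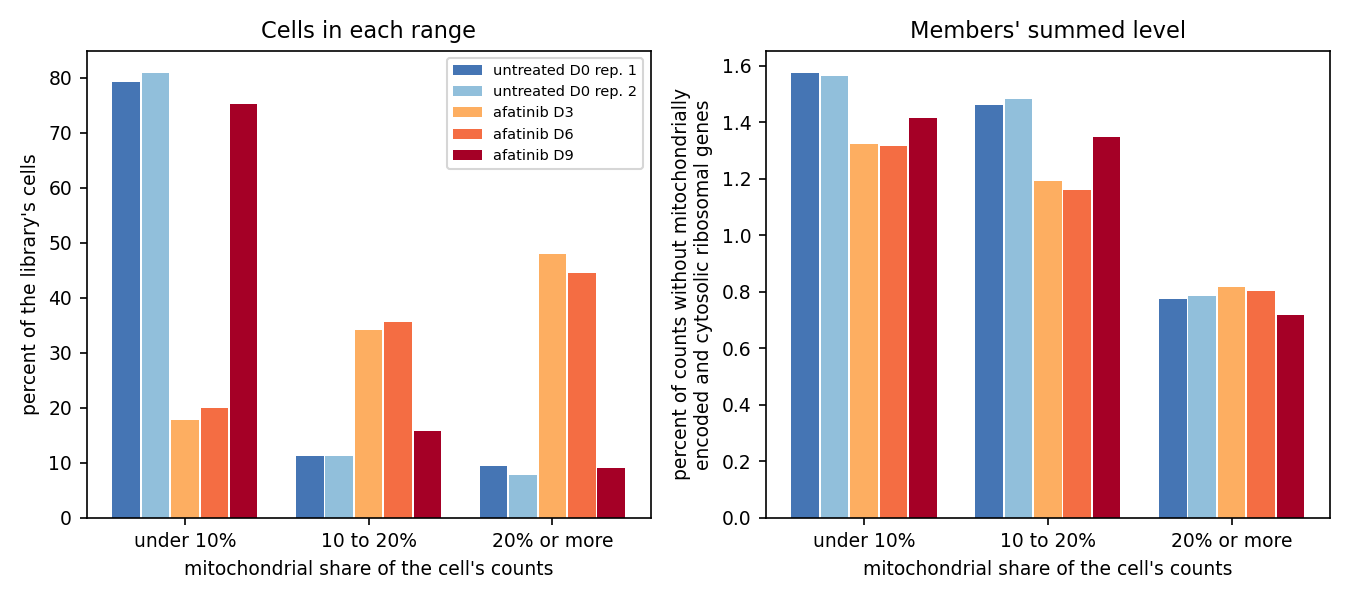
Left, percent of each library's cells in 3 ranges of the mitochondrial share of counts; right, the summed level of the 78 members in those cells, as percent of counts without mitochondrially encoded and cytosolic ribosomal genes. Bars are the 5 libraries in order of day. At D3 and D6, 48.0% and 44.5% of cells are in the highest range, where the members' level is between 0.717% and 0.816% in all libraries, and in the other ranges D3 and D6 are lowest.

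In the test restricted to cells under 10%, 19 members fell under afatinib (8.44% of all genes did), of which 16 were among the 23. The median was -0.26 in place of -0.45. By day, 11 members fell at D3 (6.43% of all genes), 13 at D6 (10.1%) and 17 at D9 (15.9%), with medians of -0.37, -0.35 and -0.15. All 11 and all 13 were also called over all cells, and so were 15 of the 17. The 11 falls at D3 were MRPL33, MRPL12, MRPL15, MRPL1, MRPL20, MRPL47, MRPL35, MRPS18C, MRPL52, MRPS16 and MRPS17. At D9 over D3, 1 member rose and 7 fell in these cells, where 2.93% of all genes rose and 10.4% fell, with a median of 0.21 in place of 0.57. At D9 over D6, 1 rose and 7 fell, where 2.38% of all genes rose and 7.55% fell. The 7 falls of each contrast were thus near the share over all genes. MRPL33 had -0.91 at D3 and -2.30 at D9 in these cells, and MRPL52 had -0.62 and -1.82. In cells of 10% or more, 21 of 77 members tested fell under afatinib (6.34% of all genes), and 38 at D3 (8.64%), 40 at D6 (9.99%) and 13 at D9 (9.88%). In these cells 13 members rose at D9 over D3 (3.49% of all genes) and 15 at D9 over D6 (3.09%). The part of the mitochondrial share in the D3 and D6 falls was not tested beyond these values.

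**Figure D4:**
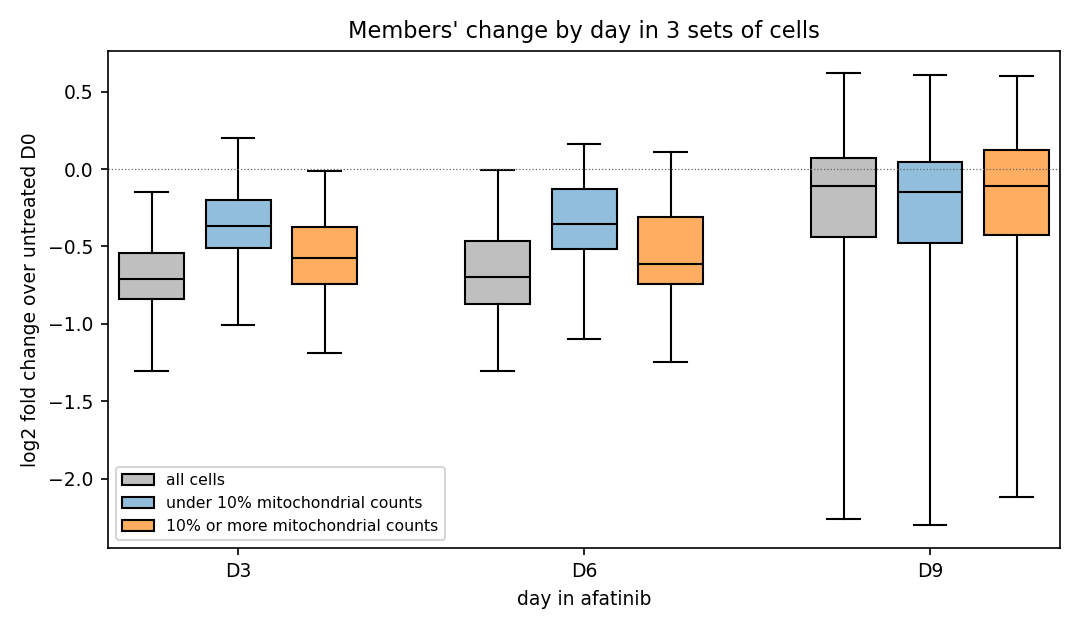
Log2 fold change of the members over untreated D0 at D3, D6 and D9, in all cells, in cells under 10% and in cells of 10% or more mitochondrial counts. Boxes span the quartiles with the median as a line, and whiskers reach the lowest and highest member. The medians at D3 are -0.71, -0.37 and -0.57, and at D9 -0.11, -0.15 and -0.11.

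Per cell, the members made up a median of 1.14% and 1.13% of counts in D0 replicates 1 and 2, 0.627% on D3, 0.696% on D6 and 1.07% on D9. A cell thinned to 5000 UMIs showed, of the 78 genes, a median of 36 and 35 at D0, 23 at D3, 25 at D6 and 34 at D9. The 5th and 95th percentile were 16 and 43.2 in D0 replicate 1 and 18 and 42 in D0 replicate 2. They were 11.9 and 35.1 at D3, 13 and 36 at D6, and 16 and 41 at D9. The ranges of the days overlapped. The 95th percentile at D3, 35.1, lay between the medians of D0 replicates 1 and 2, 36 and 35.

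Other genes of mitochondrial gene expression are read against the same shares of all genes, 10.1% falling and 13.1% rising under afatinib and 14% falling at D3. Of 5 proteins of the mitochondrial ribosome with other symbols, 0 were called under afatinib in edgeR (at an unadjusted p under 0.05 there was 1 lower, and DESeq2 called 1 fall), and at D3 CHCHD1 (mS37) and GADD45GIP1 (mL64) fell. GADD45GIP1 was at 652 and 646 CPM in D0 replicates 1 and 2, 341 on D3, 411.3 on D6 and 596 on D9. Of 27 assembly factors, 3 fell and 1 rose under afatinib, with a median of -0.11, so the falls were near the share over all genes. The ribosomal RNA methyltransferases MRM1 (-1.42 ± 0.23) and MRM2 (-0.63 ± 0.15) and the endoribonuclease YBEY (-0.64 ± 0.16) fell, and METTL17 (0.57 ± 0.15) rose. At D3, 4 of the 27 fell and 1 rose, also near that share, with a median of -0.08.

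Of 16 translation factors, 4 fell and 1 rose. SLIRP, which stabilises mitochondrial messenger RNA with LRPPRC, was at 502 and 487 CPM at D0, 178 at D3, 194 at D6 and 61.0 at D9 (-1.78 ± 0.42). The methionyl-tRNA formyltransferase MTFMT (-0.77 ± 0.15), the initiation factor MTIF3 (-0.72 ± 0.14) and the release factor MTRF1L (-0.54 ± 0.14) fell, and the release factor MTRF1 (0.79 ± 0.23) rose. Among the tRNA synthetases, MARS2 and HARS2 fell, by 0.83 and 0.69 on the log2 scale. Of 17 genes of mitochondrial transcription and DNA maintenance 0 were called in edgeR (1 up and 2 down at an unadjusted p under 0.05, and 2 falls in DESeq2). Of 10 regulators of mitochondrial biogenesis only the nuclear receptor ESRRA was called under afatinib, with 83.7 and 81.6 CPM at D0, 120.5 at D3, 128 at D6 and 132 at D9 (0.62 ± 0.14). This 10% that rose was near the 13.1% of all genes. At D6 over D0 ESRRA and MYC rose (20%, beside 17.9% of all genes). MYC was at 102 and 110 CPM at D0, 134 at D3, 195 at D6 and 142 at D9 (0.88 ± 0.09 at D6).

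In the import and protease list 12 of 31 fell and 1 rose under afatinib, with medians of -0.70 at D3, -0.52 at D6 and -0.37 at D9. TIMM8A (-1.27 ± 0.13) and TIMM8B (-1.24 ± 0.27), small chaperones of the intermembrane space, the matrix co-chaperonin HSPE1 (-0.98 ± 0.18) and PAM16 of the import motor (-0.92 ± 0.16) fell most. The matrix protease LONP1 rose, with 40.5 and 39.5 CPM at D0, 90.4 at D3, 107 at D6 and 94.1 at D9 (1.28 ± 0.15). The 13 mitochondrially encoded messenger RNAs, which the mitochondrial ribosome translates, had medians of 0.96 at D3, 0.90 at D6 and 0.21 at D9. On these days 12, 12 and 0 of them rose, where 16.8%, 17.9% and 14.5% of all genes did. At D9, 4 of the 13 fell, where 14.4% of all genes did, namely MT-ND3 (-2.88 ± 0.03), MT-ND6 (-2.51 ± 0.13), MT-ND4L (-1.81 ± 0.06) and MT-ATP8 (-1.26 ± 0.11). Under afatinib MT-ND1 (1.47 ± 0.41) and MT-ND5 (1.14 ± 0.35) rose, and these 15.4% of the list were near the 13.1% of all genes. The mitochondrially encoded genes take a large share of all counts. Without them and the cytosolic ribosomal genes the members' median was -0.80 on D3, -0.76 on D6 and -0.17 on D9.

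Cytosolic ribosomal proteins and nuclear-encoded oxidative phosphorylation subunits were lower at D3 too, with medians of -0.68 over 82 genes and -0.64 over 80 genes. At D9 they had medians of -0.72 and -0.60, with 44 and 42 genes called as falls, where the members had -0.11 and 15. Of all genes tested, 14.4% fell at D9. At D9 over D3 the median of the cytosolic ribosomal proteins was -0.01 (23 rose, 19 fell) and that of the oxidative phosphorylation subunits 0.03 (24 rose, 16 fell). The members had 37 rises and 2 falls in this contrast, where 10.3% of all genes rose and 12.2% fell. In cells under 10% mitochondrial counts the members had 1 rise and 7 falls in it, where 2.93% of all genes rose and 10.4% fell. The difference between the lists was not tested.

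**Figure D5:**
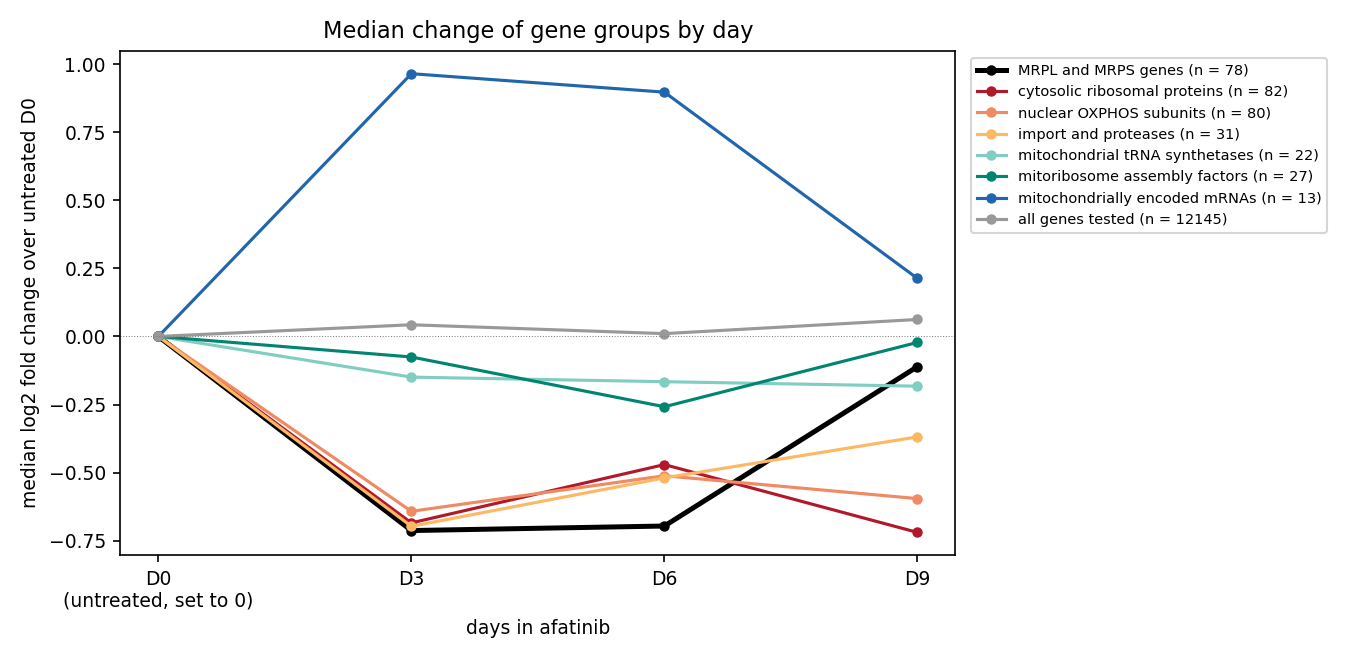
Median log2 fold change over untreated D0 of 8 gene groups at D3, D6 and D9 of afatinib, with D0 set to 0 and the number of genes tested in the legend. The line of the 78 members is at -0.71, -0.70 and -0.11, that of the 82 cytosolic ribosomal proteins at -0.68, -0.47 and -0.72, and that of the 13 mitochondrially encoded messenger RNAs at 0.96, 0.90 and 0.21.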

How the data were processed

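Per the methods of the study, the authors aligned 10x Genomics 3' v3.1 reads with Cell Ranger 6.1.2 to GRCh38 (GENCODE v32), removed cells under 5000 UMIs, with an outlying mitochondrial share or called as doublets, adjusted for the 2 D0 captures with ComBat-seq, removed genes of low expression and deposited the values as estimated counts per gene and cell, which are whole numbers not scaled for depth. Counts before this adjustment were not used here, and it can alter differences between libraries. Of 71 members with values of 1 and 3 in at least 10 cells each of D0 replicate 1, 27 held no value of 2 there, and of these 0 lacked it in the same way in D0 replicate 2, 21 at D3, 19 at D6 and 22 at D9, so the treated libraries carry the same trace as D0 replicate 1.

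Counts were summed per library and tested with edgeR 4.0.16 (R 4.3.3) after filterByExpr and TMM. DESeq2 1.42.0 and limma 3.58.1 served as alternatives, as did other size factors, no filter, thinning to 5000 UMIs, cells under 10% mitochondrial counts, a linear trend in day and leaving out each library. The edgeR tests were tried on simulated counts. For the main test these counts varied less between libraries than the fit to the data found. The trial thus does not show how that test performs at the spread of these data. The 3 treated days entered the main test as 1 group. How reads shared with gene copies were assigned is not given in the sources used here, and the counts of the 36 members with a named pseudogene in GENCODE release 44 are uncertain to that extent. Positions came from that release and promoters from RefSeq.

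Named were up to 12 called rises and falls by size (up to 6 by value where fewer were called), the 4 largest called per day contrast, the most and least abundant member, the MRPS18 paralogs and up to 4 called genes per list; other genes were named after their values were seen. The members and lists were chosen with earlier results of these data known. The tRNA synthetase list is not reported here in full.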

Additional observations from a re-analysis of the deposited data

Results flagged for a closer look

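Effects at D9 and at D3 over the same untreated libraries differed, by the test of D9 over D3 in the fit by day (edgeR, adjusted p under 0.05 and 1.5-fold): 37 members were higher at D9 and 2 were lower. Of all genes tested, 10.3% were higher and 12.2% were lower. The largest of these differences on the log2 scale were 0.95 for MRPL58, 0.88 for MRPS12, 0.88 for MRPL27 and 0.86 for MRPS11, and -0.96 for MRPL33 and -0.80 for MRPL52. In cells under 10% mitochondrial counts 1 member was higher and 7 were lower, where 2.93% and 10.4% of all genes were. Each treated day is 1 library, so the day cannot be told apart from its capture.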

How the results depend on the processing

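The direction of the members' median over afatinib and untreated libraries was kept under every alternative. The count of falls (23) was 12 to 75 when 1 afatinib library was left out, where 5.45% to 27.3% of all genes fell in place of 10.1%. It was 3 with a linear trend in day, where 448 of all 12145 genes fell. Without D0 replicate 1 or D0 replicate 2, which leaves 1 untreated library, the members' median was -0.48 or -0.47. With D3 and D6 left out, an alternative added after seeing the data with no minimum fold, 8 members rose in place of 0 and 33 fell, where 26.8% of all genes rose and 28.5% fell. Among the day contrasts, cells under 10% mitochondrial counts gave 11 falls at D3 in place of 54, where 6.43% of all genes fell in place of 14%. At D6 they gave 13 falls in place of 49, where 10.1% of all genes fell in place of 15.7%. Their medians were -0.37 at D3, -0.35 at D6 and -0.15 at D9. At D9 over D6 they gave 1 rise and 7 falls (median 0.14), where 2.38% of all genes rose and 7.55% fell. At D9 over D3 they gave 1 rise and 7 falls (median 0.21), where 2.93% of all genes rose and 10.4% fell. Cells of 10% or more, also added later, gave medians of -0.57 at D3 and -0.61 at D6. They gave 15 rises at D9 over D6 (median 0.39), where 3.09% of all genes rose, and 13 at D9 over D3 (median 0.38), where 3.49% did. Thinned cells gave medians of -0.89 at D3 and -0.77 at D6, 1 rise at D6 over D3 (median 0.11) and 49 rises at D9 over D6 (median 0.64). At D9 over D3 they gave 49 rises and 1 fall (median 0.74). Of the 11961 genes tested in thinned cells, 105 rose at D6 over D3 and 1489 rose at D9 over D6. At D9 over D3, 1555 of them rose and 1347 fell. DESeq2 size factors gave medians of -0.76 at D3, -0.15 at D9, 0.064 at D6 over D3 and 0.48 at D9 over D6. They gave 0 rises at D9 in place of 1, where 1558 of 12145 genes rose. Without mitochondrially encoded and cytosolic ribosomal genes the medians were -0.80 at D3, -0.76 at D6 and -0.17 at D9, with 0 rises at D9 (1471 of 12052 genes rose). The cause of these shifts was not tested. Of the untreated mean, the summed level was 73.4%, 72.4% and 89.7% at D3, D6 and D9 with those genes out of the denominator, 85.1%, 81.8% and 94.6% in cells under 10%, and 61.9%, 64.1% and 94.9% as a mean over cells. No paired analysis was possible because only the untreated libraries carry replicate numbers. With 1 library per treated day, counting depth does not limit most members, except MRPL53 with 21 to 95 counts per library.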
